A study of Rattus norvegicus with 179 samples.

Results

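Hemoglobin is the oxygen carrier of red blood cells. It is built from pairs of alpha globin and beta globin chains, each holding a heme group, and Alas2 is the erythroid form of the enzyme that starts heme synthesis. Red cells lose their nucleus as they mature, and young red cells (reticulocytes) still carry globin messages in the circulation, so globin and Alas2 reads in the RNA of a solid tissue are commonly read as a measure of the blood left in the piece that was taken.

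The members were 4 of the 32545 Ensembl gene IDs in the count table, given by ID: the alpha globins ENSRNOG00000047321 and ENSRNOG00000029886, the beta globin Hbb ENSRNOG00000058105, and Alas2 ENSRNOG00000000167. Each had to be present and to co-vary with the others. The levels were given as CPM, that is the reads of a gene scaled to a common total of counted reads in each library. The table came without symbols, and which rat alpha globin copy each of the 2 alpha IDs stands for is not given in the sources used here. Near-identical globin copies can share or lose reads when reads are assigned to genes, so the split of reads between the 2 alpha IDs is uncertain. In such bulk samples fewer cells of a type and less RNA per cell cannot be told apart.

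The libraries came from 36 male F344BN rats, aged 24 mo when obtained, in 6 groups of 6 rats that lived under the same 12-wk schedule. LPAEx, LPEx, and CONEx rats walked on a treadmill at 12 cm/s on 5 days/wk, and LPASed, LPSed, and CONSed rats were placed for 10 min on a treadmill that was switched off. By gavage 3 times/wk, LPA rats received a Lactobacillus paracasei strain that was modified to make the peptide Ang (1–7), LP rats received the unmodified bacterium, and CON rats received buffer. Each rat had libraries of prefrontal cortex (PFC), hippocampus, liver, colon, and tibialis anterior muscle, except that LPEx rat 3 had none of liver. Every tissue thus had 36 libraries, except for liver with 35.

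The RefSeq sequence before the start of the rat globin and Alas2 genes is shown because these genes are compared for how they move together, and because Hba-a1 and Hba-a2 are near identical there. The 120 bases before each start are given for assembly GRCr8, 5′ to 3′ on the strand of the gene, matched by symbol and not to an alpha ID. They lie at chr10:15842581-15842700 (Hba-a1), chr10:15829139-15829258 (Hba-a2), chr10:15816944-15817063 (Hba-a3), and chr1:167663722-167663841 (Hbb), all on the minus strand, and at chrX:22895330-22895449 on the plus strand (Alas2). Capitals mark the motif CCAAT, the motif ATAAA, the motif CACCC, and the motif GATAA, searched on both strands.
Hba-a1: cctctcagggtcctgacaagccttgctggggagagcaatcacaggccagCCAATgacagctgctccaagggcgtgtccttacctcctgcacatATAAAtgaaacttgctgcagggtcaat
Hba-a2: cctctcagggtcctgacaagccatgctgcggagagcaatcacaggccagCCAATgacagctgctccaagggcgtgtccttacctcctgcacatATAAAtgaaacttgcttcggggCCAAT
Hba-a3: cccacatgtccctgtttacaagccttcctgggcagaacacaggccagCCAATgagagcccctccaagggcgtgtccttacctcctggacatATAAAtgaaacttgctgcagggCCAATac
Hbb: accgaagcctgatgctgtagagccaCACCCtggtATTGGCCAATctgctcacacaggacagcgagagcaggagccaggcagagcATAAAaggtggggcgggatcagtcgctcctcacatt
Alas2: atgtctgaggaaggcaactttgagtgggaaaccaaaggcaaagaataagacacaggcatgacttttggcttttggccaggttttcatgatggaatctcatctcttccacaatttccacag
Hba-a1 and Hba-a2 had the same base at 115 of the 120 positions. All 4 globin windows held CCAAT and ATAAA, and the Hbb window also held CACCC. Within these 120 bases the Alas2 window held none of the 4 motifs and no window held GATAA. Within 250 bases GATAA was found 1 time each for Hba-a1, Hba-a2, and Alas2, and CACCC 1 time each for Hba-a1, Hba-a2, and Hbb. Among the same windows of 33469 rat promoters, 19.9% held CCAAT, 21.5% ATAAA, 29.5% CACCC, and 11.2% GATAA. A match is a description of the letters and not evidence of a bound site.

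Total counts were between 13203828 and 27563733 per library. Libraries were checked with genes enriched in brain, liver, colon, or muscle (at least 20 CPM and 10-fold above the others), and matched their labels except for 2 liver libraries that were left out. This check takes both brain regions together, so it cannot tell PFC from hippocampus. The liver library of LPAEx rat 7 had 0.381% of its reads in liver-enriched genes and 10.3% in colon-enriched genes, and that of LPEx rat 4 had 0.0896% in liver-enriched and 36.5% in muscle-enriched genes, against 40.7% to 50.2% in liver-enriched genes in the 33 liver libraries kept. Within each tissue, the correlation of log2(CPM + 0.5) with the mean of the other 3 members was 0.86 to 0.98 for the 3 globins and 0.58 to 0.93 for Alas2, so all 4 IDs met the rule of more than 0.5 in at least 3 tissues and were kept.

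The members made up a small part of each library. Together they took 0.0255% to 0.233% of the reads in PFC, 0.0173% to 0.3075% in hippocampus, 0.0425% to 0.871% in liver, 0.00125% to 0.131% in colon, and 0.00901% to 0.151% in muscle. Hbb, the beta chain, had a median of 555 CPM in liver (252 to 4481, n = 33), 210 CPM in PFC (100.1 to 925), 127 CPM in hippocampus (68.9 to 1074), 114 CPM in muscle (37.6 to 564), and 30.1 CPM in colon (7.03 to 582; n = 36 in each of the other tissues). The alpha globin ENSRNOG00000029886 had medians of 314, 242, 168, 115, and 23.6 CPM in the same order of tissues, and the alpha globin ENSRNOG00000047321 had 118, 89.9, 58.4, 43.6, and 10.1 CPM. Alas2 had medians of 3.46, 2.00, 1.22, 0.689, and 0.266 CPM. CPM is not corrected for gene length, so these levels were compared between tissues and not between genes.

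All 4 genes thus had the same order of medians, with liver highest and colon lowest. Differences between tissues of the same rat were tested on log2(CPM + 0.5) with two-sided sign-flip permutation tests (100000 resamples), adjusted by Benjamini-Hochberg over 40 comparisons, and 39 of them passed at 0.05. The exception was Alas2 in PFC against hippocampus, which differed by 0.26 on the log2 scale (SD 1.03, higher in PFC in 22 of 36 rats, adjusted p = 0.136). Hbb was lower in PFC than in liver in 32 of 33 rats, with a mean PFC minus liver difference of -1.51 ± 0.75 (SD, adjusted p = 1.74e-05). It was higher in liver than in colon in 33 of 33 rats, by 4.21 ± 1.23 (adjusted p = 1.74e-05). Both adjusted p came from the smallest unadjusted p that these resamples can give. The narrowest of the 10 Hbb differences was the one between the brain regions, with a PFC minus hippocampus difference of 0.37 ± 0.81 (26 of 36 rats higher in PFC, adjusted p = 0.00969). The place of muscle depended on the scaling. With TMM factors computed over all libraries, Hbb in hippocampus was below muscle by a mean difference of -0.74, against 0.41 above it in CPM.

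**Figure D1:**
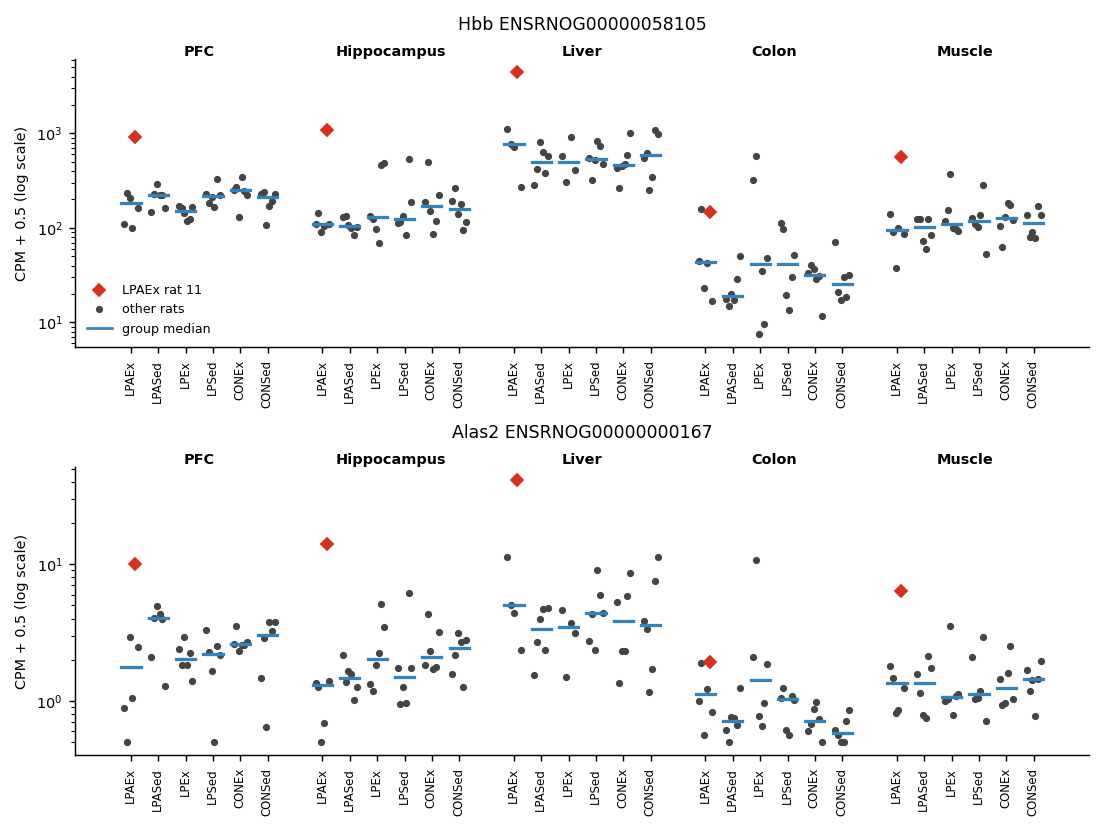
Level of Hbb (top) and Alas2 (bottom) in each library, as CPM + 0.5 on a log axis, by tissue and group, with LPAEx on the left and CONSed on the right of each tissue. Points are rats, blue lines are group medians, and the red diamond is LPAEx rat 11, which was the highest library of PFC, hippocampus, liver, and muscle for both genes.

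The members moved together from library to library within each tissue. The 3 globins had Pearson r of 0.89 to 0.99 with each other in all 5 tissues. Alas2 followed the globins less closely, with r of 0.90 to 0.94 in liver, 0.83 to 0.85 in muscle, 0.78 to 0.82 in hippocampus and colon, and 0.54 to 0.60 in PFC. Spearman's rho of the 30 pairs was 0.56 to 0.98. These values are a description with no test, since the members were kept for moving together in the same libraries. Without the 2 libraries farthest from the median the globins kept r of 0.80 to 0.98 and Alas2 had 0.35 to 0.89, with its lowest value in PFC (0.35 with ENSRNOG00000029886). Alas2 rested on few reads, with a median of 63 reads in liver, 29.5 in PFC, 18 in hippocampus, 13 in muscle, and 5 in colon, and it was at 0 in 4 colon, 2 PFC, and 1 hippocampal libraries. The points of one tissue shared no rat. In the libraries the correlation of a member with the total count was between -0.26 and 0.25.

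**Figure D2:**
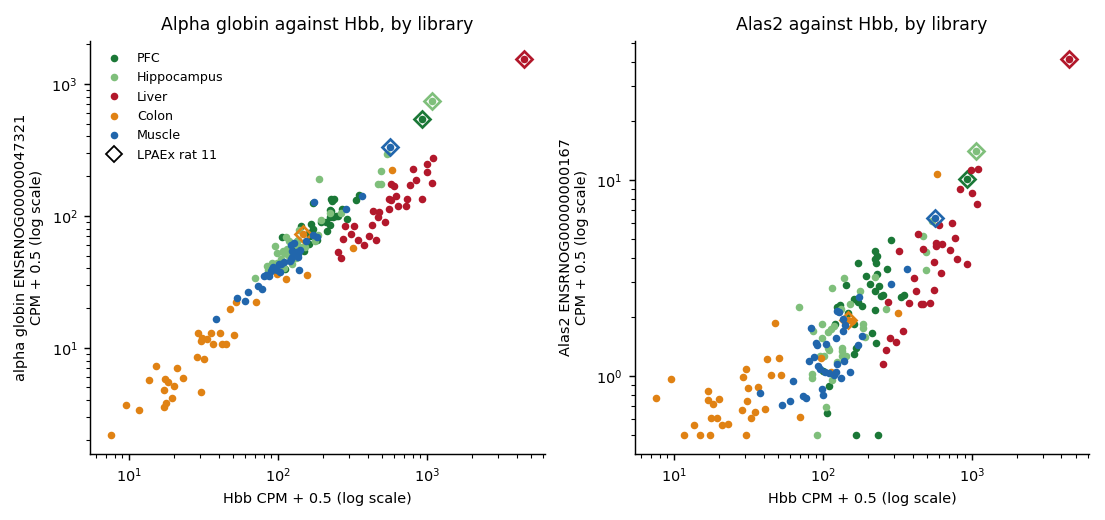
The alpha globin ENSRNOG00000047321 (left) and Alas2 (right) against Hbb in each library, CPM + 0.5 on log axes, coloured by tissue. Outlined diamonds are LPAEx rat 11. At a like level of alpha globin, most liver libraries lie to the right of PFC, hippocampal, and muscle libraries, and overlap with some colon libraries.

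The balance of the chains differed between tissues. Hbb had a median of 1.77 reads per read of the alpha globin ENSRNOG00000029886 in liver (1.33 to 2.76) and 1.35 in colon (0.71 to 2.5), against 1.01 in muscle (0.72 to 1.19), 0.86 in PFC (0.56 to 1.30), and 0.83 in hippocampus (0.36 to 1.05). The lowest of the 33 livers was above every PFC, hippocampal, and muscle library. The ratio of the 2 alpha IDs had medians between 0.366 in hippocampus and 0.410 in muscle, in reads of ENSRNOG00000047321 per read of ENSRNOG00000029886. Of 60 comparisons of a ratio between 2 tissues (same permutation test, adjusted over the 60), 34 passed at 0.05, among them 9 of 10 for ENSRNOG00000029886 over Hbb and 3 of 10 for the 2 alpha IDs. For ENSRNOG00000029886 over Hbb, the PFC minus liver difference was 1.12 ± 0.40 on the log2 scale (SD, 33 of 33 rats higher in PFC, adjusted p = 5.0e-05), and the liver minus muscle difference was -0.85 ± 0.31 (33 of 33 rats lower in liver, adjusted p = 5.0e-05). These are ratios of reads and carry the same gene lengths in every tissue.

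**Figure D3:**
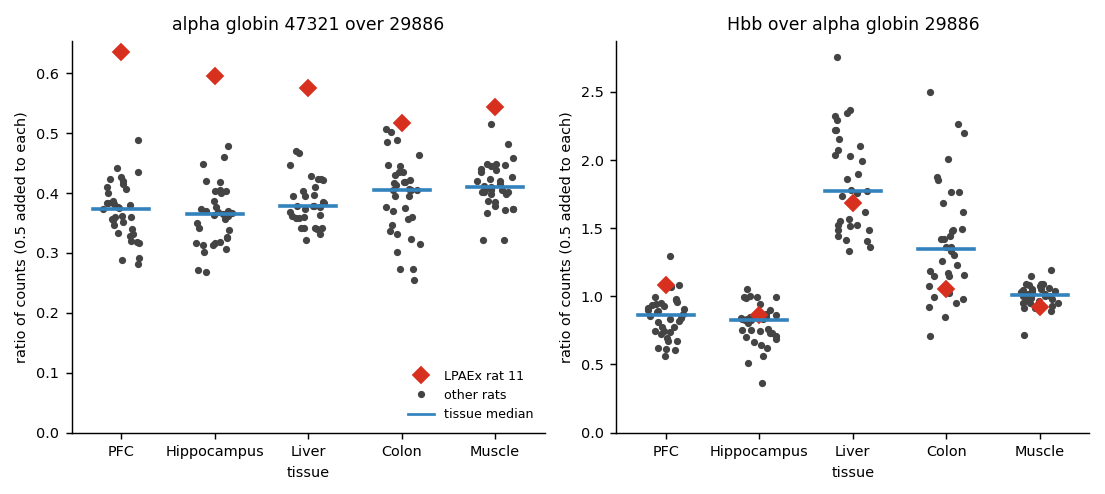
Reads of the alpha globin ENSRNOG00000047321 per read of ENSRNOG00000029886 (left) and of Hbb per read of ENSRNOG00000029886 (right) in each library, by tissue, with 0.5 added to each count. Blue lines are tissue medians. LPAEx rat 11 (red) has the highest alpha ratio in each of the 5 tissues, and liver has the highest median of Hbb over alpha.

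A single rat stood apart. LPAEx rat 11 had the highest level of all 4 genes in PFC, hippocampus, liver, and muscle. In its liver, Hbb was at 4481 CPM, which was 8.08 times the median of the other livers, and the next liver (LPAEx rat 4) was at 1101 CPM. ENSRNOG00000047321 was at 1530 CPM (13.3 times), ENSRNOG00000029886 at 2659 CPM (8.49 times), and Alas2 at 40.7 CPM (12.0 times the median of the other livers). In hippocampus the same rat had 12.8, 7.74, 8.71, and 11.3 times the median of the others for ENSRNOG00000047321, ENSRNOG00000029886, Hbb, and Alas2. In PFC it had 6.04, 3.58, 4.45, and 4.85 times that median for these genes, and in muscle 7.76, 5.31, 5.13, and 8.60 times. Its colon was high as well, at 4.91 to 7.16 times the median, but ranked 2 to 4, below the colon of LPEx rat 4. Its libraries held between 14398126 and 20956752 reads, and the share of reads in genes enriched in its own tissue, or in brain for both brain regions (20.5%, 20.6%, 43.6%, 12.2%, and 35.04% in PFC, hippocampus, liver, colon, and muscle) lay within the range of the other libraries of each tissue. Shares of genes enriched in other tissues were less ordinary. Its liver had the highest share in colon-enriched genes of the livers kept (0.440%, next 0.193% in CONSed rat 10). It also had the highest in brain-enriched genes (0.268%, next 0.172% in LPEx rat 6). Its muscle had the highest share in liver-enriched genes (0.129%, next 0.111% in LPEx rat 6). Whether depth or tissue make-up had a part in its levels was not tested.

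The make-up of the globin reads of that rat differed too. LPAEx rat 11 had 0.636, 0.595, 0.575, 0.517, and 0.544 reads of ENSRNOG00000047321 per read of ENSRNOG00000029886 in PFC, hippocampus, liver, colon, and muscle, the highest ratio of each tissue, against at most 0.489, 0.478, 0.471, 0.507, and 0.515 in the other rats. Its Hbb over ENSRNOG00000029886 was within the range of the other rats in every tissue. With all rats, Pearson r of the alpha ratio between tissues was 0.08 to 0.44 (0 of 10 pairs passed a two-sided permutation test with adjustment over 10, lowest adjusted p = 0.0645), Spearman's rho was 0.03 to 0.44, and without LPAEx rat 11 r was -0.08 to 0.27 (lowest adjusted p = 0.701). This ratio was singled out after its values were seen.

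Whether a rat with high globin in one tissue had it in another was asked with 40 correlations over rats (4 genes and 10 tissue pairs). Of these, 8 passed a two-sided permutation test after adjustment over the 40, all positive. They were PFC with hippocampus for the 3 globins, liver with muscle for all 4 genes, and PFC with liver for Hbb. For Hbb in liver and muscle r was 0.55 (adjusted p = 0.0237) and rho was 0.36, and r was 0.26 without the 2 livers farthest from the median. None of the 40 Spearman correlations passed (lowest adjusted p = 0.390), and without LPAEx rat 11 none of the 40 Pearson correlations did (lowest adjusted p = 0.975). For Hbb in PFC and liver r was 0.48 with that rat and 0.10 without it. Hbb was above the tissue median in all 5 tissues in 1 of the 33 rats with 5 libraries used, and that was LPAEx rat 11. For ENSRNOG00000047321, ENSRNOG00000029886, and Alas2 this held in 4, 2, and 4 rats, with LPAEx rat 11 among them each time. The share that chance gives was not worked out. After LPAEx rat 11, LPSed rat 10 came next, among the 5 highest of Hbb in 3 tissues.

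**Figure D4:**
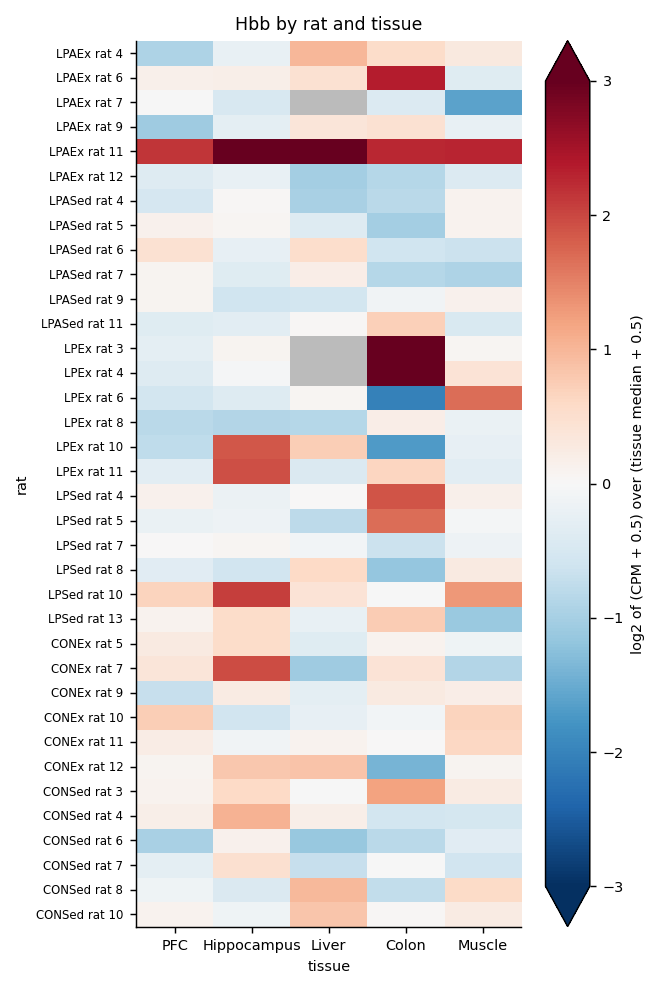
Hbb of each rat in each tissue, as the log2 ratio of CPM + 0.5 to the tissue median + 0.5, with red above and blue below the median. Rats run down the page by group. Grey marks liver libraries that were left out (LPAEx rat 7, LPEx rat 4) and the rat without a liver library (LPEx rat 3). LPAEx rat 11 is red across the whole row, and most other rows mix colours.

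The design set the combination of LPA and exercise against either alone and against the controls, so each gene was compared between LPAEx and each of the other 5 groups in each tissue, with edgeR's quasi-likelihood test fitted over all genes. A gene was called a DEG at an FDR < 0.10 with an absolute log2 fold change > 1. None of the 4 members was a DEG in any of the 25 LPAEx comparisons. In PFC, hippocampus, liver, colon, and muscle 2, 3, 20, 3, and 0 of the 20 tests of members had an unadjusted p < 0.05. Over all genes 14.0%, 4.64%, 9.89%, 3.81%, and 6.4% of tests had such a p in the same order of tissues. The 20 tests of a tissue use the same LPAEx libraries and genes that move together, so they are not independent. DESeq2 called 1 member test and limma voom with sample quality weights 0. The DESeq2 call was in liver against CONEx, where DESeq2 called 1.98% of all genes. Over all genes, edgeR called 0.523% of tests in PFC, 0% in hippocampus, 0.463% in liver, 0.0164% in colon, and 0.0324% in muscle.

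Liver had the largest LPAEx estimates relative to their error. Hbb was at 1101, 768, 719, 4481, and 272 CPM in the livers of LPAEx rats 4, 6, 9, 11, and 12, against a lowest, median, and highest of 281, 498, and 802 CPM in LPASed, 307, 492, and 924 CPM in LPEx (n = 4), 323, 540, and 840 CPM in LPSed, 263, 461, and 1006 CPM in CONEx, and 252, 588, and 1086 CPM in CONSed. The LPAEx livers overlapped with every other group, and their highest value was rat 11. Alas2 was at 10.9, 4.54, 3.89, 40.7, and 1.88 CPM in the same LPAEx livers, against medians of 2.83 CPM in LPASed, 2.95 CPM in LPEx, 3.88 CPM in LPSed, 3.33 CPM in CONEx, and 3.09 CPM in CONSed, and it overlapped with each of these groups as well. All 20 log2 fold changes of LPAEx over another group were positive, from 1.05 to 2.02, with unadjusted p of 0.0027 to 0.0387 in edgeR. The share of all genes at an unadjusted p < 0.05 in these liver comparisons was 9.89%. The 20 tests use the same LPAEx livers and genes that move together, so they are not independent and their number adds little. After adjustment none passed, with an FDR of 0.125 to 0.571. The lowest FDR was that of ENSRNOG00000047321 against CONEx, with a log2 fold change of 1.69 ± 0.52 (SE).

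These liver estimates rested on LPAEx rat 11. Without it the 20 values were 0.15 to 0.94 and 0 had an unadjusted p < 0.05 in edgeR, where 3.94% of tests over all genes did, and ENSRNOG00000047321 against CONEx was 0.39 ± 0.41 (SE, FDR = 1.00). Leaving out the highest liver of a group lowers the estimates of that group by itself. Calls did appear when another LPAEx liver was left out and rat 11 was kept. Over the 20 liver tests, 2 were called without LPAEx rat 4, 4 without rat 6, 6 without rat 9, and 11 without rat 12, while 1.91%, 2.15%, 2.24%, and 1.99% of tests over all genes were. DESeq2 called 1, ENSRNOG00000047321 against CONEx (1.71 ± 0.53, FDR = 0.0727), where 1.98% of all genes were called. The calls of other genes in liver changed with this rat as well. Of the 136 genes called higher in LPAEx than in CONEx, 133 had their highest level of all 33 livers in rat 11, as did 44 of 50 against CONSed, 67 of 72 against LPSed, and 49 of 51 against LPASed. Of the 14025 genes tested in liver, 28.4% were highest in rat 11. Genes called higher in LPAEx are likely to be highest in an LPAEx liver, so that share is not a like comparison. Without that library 10, 1, 4, 1, and 4 genes were called against CONSed, CONEx, LPSed, LPEx, and LPASed, against 56, 138, 76, 0, and 55 with it. The calls without it were 0.0287% of the liver tests over all genes.

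**Figure D5:**
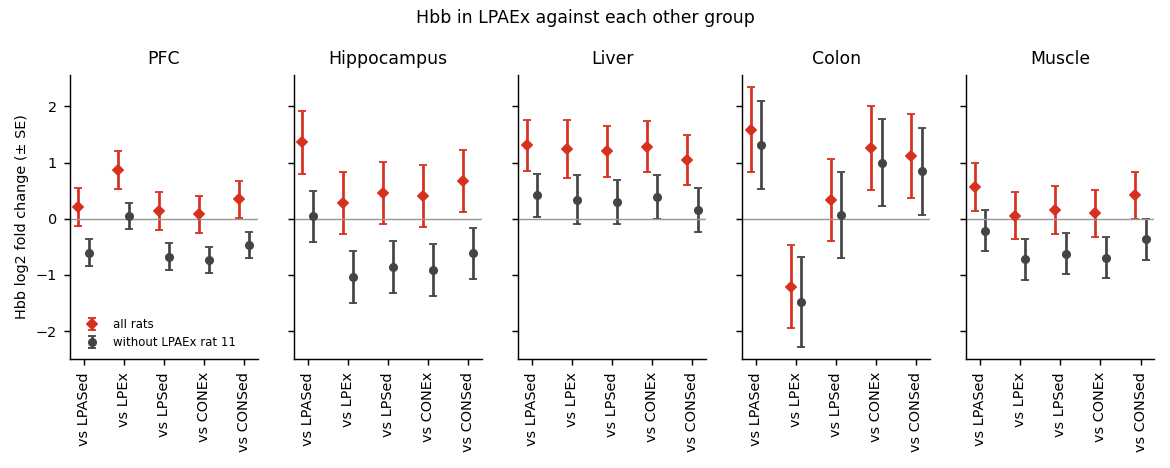
Hbb log2 fold change of LPAEx over each other group (± SE, edgeR) in each tissue, with all rats (red diamonds) and without LPAEx rat 11 (grey circles). The 5 liver values lie between 1.05 and 1.31 with all rats and between 0.15 and 0.42 without rat 11, and all 5 muscle values are below 0 without it.

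In PFC, hippocampus, and muscle the sign of most LPAEx estimates depended on the same rat, and in colon it did not. With all rats, 15 of 20 values were positive in PFC, 20 of 20 in hippocampus, and 19 of 20 in muscle. Without rat 11, 1 of 20 was positive in PFC, 2 of 20 in hippocampus, and 0 of 20 in muscle. In colon 15 of 20 were positive with all rats and 14 of 20 without rat 11. With all rats 2, 3, and 0 of the 20 values had an unadjusted p < 0.05 in PFC, hippocampus, and muscle, each of them positive, while 14.0%, 4.64%, and 6.4% of tests over all genes had such a p. Without rat 11 there were 12, 11, and 2 such values of members, each of them negative, while 13.6%, 4.43%, and 7.18% of tests over all genes had such a p. Rat 11 was left out for its high levels of these genes, which by itself lowers the LPAEx estimates and their spread. The shares over all genes were not taken without each gene's own highest library, so these counts cannot be read against them. None of the member values had an FDR < 0.10 with either set of rats (lowest FDR = 0.113, in PFC without rat 11). In hippocampus Hbb was at 109, 144, 90.5, 104, and 109 CPM in LPAEx rats 4, 6, 7, 9, and 12 and at 1074 CPM in rat 11, against 84.3 to 133 CPM in LPASed, 68.9 to 490 CPM in LPEx, 84.6 to 539 CPM in LPSed, 84.9 to 492.9 CPM in CONEx, and 94.6 to 264 CPM in CONSed. These 5 LPAEx rats overlapped with every group. In muscle Hbb was at 140, 89.1, 37.6, 98.4, 564, and 86.7 CPM in LPAEx rats 4, 6, 7, 9, 11, and 12, against medians of 103 CPM in LPASed, 110 CPM in LPEx, 119 CPM in LPSed, 126 CPM in CONEx, and 113 CPM in CONSed. In PFC Hbb was at 110, 233, 208, 100.1, 925, and 161 CPM in the same LPAEx rats, against medians of 224, 152, 219, 248.8, and 210 CPM in LPASed, LPEx, LPSed, CONEx, and CONSed. The LPAEx rats other than rat 11 lay on both sides of each of these medians in muscle and in PFC, except that all 5 were below the CONEx median in PFC.

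The colon had the widest spread between rats. The CV of Hbb over the 36 colons was 170%, against 61.6% in PFC, and 177% against 30.4% without LPAEx rat 11. The highest colon was at 82.9 times the lowest. The colon of LPEx rat 4 was the highest for all 4 genes, with Hbb at 582 CPM and Alas2 at 10.2 CPM, and that of LPEx rat 3 was the next for Hbb, at 319 CPM. The other 4 LPEx colons had Hbb at 7.03, 9.00, 34.7, and 47.0 CPM. Hbb in LPSed colons was 13.1, 40.9, and 112 CPM (lowest, median, and highest), against 11.2, 31.4, and 40.2 CPM in CONEx and 16.9, 25.2, and 70.2 CPM in CONSed. LPEx thus held both the highest and the lowest Hbb of the 36 colons. Colon-enriched genes took 10.5%, 10.6%, 10.4%, and 10.6% of reads in colons of LPEx rats 4 and 3 and LPSed rats 4 and 5, against a median of 13.09%. Low shares were also seen at lower Hbb, in LPASed rat 5 (5.76%, Hbb at 14.5 CPM) and LPAEx rat 4 (10.5%, Hbb at 44.2 CPM). Whether tissue make-up had a part in the colon levels was not tested. Hbb was 16.5, 42.9, and 157 CPM in LPAEx colons, against 14.5, 18.4, and 50.2 CPM in LPASed colons (lowest, median, and highest).

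Averaged over exercise, LP was above CON in colon by log2 fold changes of 1.63 ± 0.53 (Hbb), 1.72 ± 0.57 (ENSRNOG00000047321), 1.73 ± 0.56 (ENSRNOG00000029886), and 2.47 ± 0.65 (Alas2, SE from edgeR). The unadjusted p of edgeR was 0.000544 to 0.00456. For LP versus CON in colon 3.15% of all genes had an unadjusted p < 0.05, and the FDR of each member was 1.00. Without the colons of LPEx rats 3 and 4 the values were 0.21, 0.44, 0.39, and 1.44 in the same order of genes. Leaving out the 2 highest LP colons by itself lowers the LP and the exercise estimates. With all colons, voom with quality weights turned the direction of the globins, at -0.079 for Hbb, -0.016 for ENSRNOG00000047321, and -0.066 for ENSRNOG00000029886. Exercised rats were above the others in colon by 0.94 to 1.56 (unadjusted p of 0.00488 to 0.0423 with 4.4% of all genes under 0.05, FDR of 0.872 to 1.00), and by 0.05 to 0.88 without these 2 colons. In LPAEx against the other groups 3 of the 20 colon values had an unadjusted p < 0.05, where 3.81% of tests over all genes did. Over the 5 tissues, 0 of 20 member tests were called for exercise versus no exercise, 0 of 20 for LP versus CON, and 0 of 20 for LPA versus CON (edgeR), where 0.163%, 0%, and 0.00134% of all tests were. An unadjusted p < 0.05 was seen for 4 in colon and 1 in hippocampus for exercise, for 4 in colon for LP, and for 1 in liver for LPA. Over all genes 3.89% had such a p for exercise in hippocampus and 6.39% for LPA in liver. DESeq2 also called 0 members in these 3 comparisons. The exercise effect of a member did not pass a test for a difference between 2 tissues (two-sided permutation of exercise within treatment, adjusted over 40, lowest adjusted p = 0.604), nor between LPA and CON rats within a tissue (edgeR, lowest FDR = 0.441). The exercise effect in LPA minus that in CON was 1.49 to 2.06 in liver, with an unadjusted p of 0.0163 to 0.0325 in edgeR, and LPAEx rat 11 is among these livers. Over all genes 8.37% had an unadjusted p < 0.05 for this difference in liver. In colon the same difference was 0.79 to 1.73, with an unadjusted p of 0.109 to 0.564 in edgeR.

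Among the 11646 other genes that passed the filter on low counts in all 5 tissues, ENSRNOG00000061299 was the most like the members, with a mean Pearson r over tissues of 0.92 with the mean of the 4 members (0.87 to 0.97 over n = 33 to 36 libraries). It had a median of 31.3 CPM in liver, 11.9 in PFC, 8.12 in hippocampus, 6.54 in muscle, and 1.94 in colon, the same order as the members, and was highest in LPAEx rat 11 in all tissues but colon, where LPEx rat 4 was highest. The second gene, ENSRNOG00000047098, was at a mean r of 0.60. In liver alone ENSRNOG00000061299 (r = 0.92) and ENSRNOG00000021248 (r = 0.91) were the most like Alas2 among 14021 genes, and without LPAEx rat 11 these r were 0.89 and 0.86. These r describe likeness over libraries and have no test. No gene name is given for these IDs in the sources used here, and the lists of other heme, erythroid, and cell type genes were void because they were set by symbol.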

How the data were processed

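Per the labels and the study's methods, polyadenylated RNA was sequenced as 150-bp paired reads, checked with FastQC, trimmed with Trim Galore and cutadapt, and aligned to Rnor_5.0 with STAR, and the table deposited by the authors holds raw STAR counts per gene. Tool versions are not given in the sources used here. The table held 32545 Ensembl IDs for 179 libraries, of which 177 were used. The reference table paired 0 IDs with a symbol. Total counts were 13203828 to 27563733 per library (median 16894528). The rats were separate animals.

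CPM was the count over the library total, scaled to a common total. Each tissue was fitted over all genes with a low-count filter, TMM scaling, and 1 factor of 6 groups in edgeR 4.0.16 (R 4.3.3) by quasi-likelihood F tests with Benjamini-Hochberg adjustment. The SE was the size of the log2 fold change divided by the square root of F. Alternatives were DESeq2 1.42.0, limma 3.58.1 voom with quality weights, RLE size factors, no filter, only the 2 groups compared, all 35 livers, another pseudocount (0.05 in place of 0.5), rat number as a replicate block, and leaving out libraries. Correlations and paired differences on log2(CPM + 0.5) used 100000 permutations in Python 3.11.15 with numpy 2.4.6 and pandas 2.3.3, and figures used matplotlib 3.10.9. The fits were tested on simulated data.

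The members and lists were chosen with earlier results of these data known. Alternatives without LPAEx rat 11, without the colons of LPEx rats 3 and 4, and leaving out each liver and colon library in turn were chosen after seeing the data. Other genes were named by a rule: the 5 with the highest mean r over tissues with the mean of the members, and the 5 with the highest r with Alas2 in liver, of which at most 2 IDs each are printed for want of symbols.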

Additional observations from a re-analysis of the deposited data

Results flagged for a closer look

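In 17 of the 120 groups of 4 to 6 libraries (each gene in each tissue and group), the highest or lowest library lay apart from the rest by a gap test. The nominal rate of this test is about 1 of 20 groups. The rate over all genes in these data was not worked out, so the count cannot be read against it. The 4 genes move together, so these groups are not independent. LPAEx rat 11 was the high library in 6 of them. In PFC it had 541.8 CPM of ENSRNOG00000047321, against 37.3 to 98.0 CPM in the other LPAEx rats, and 852.5 CPM of ENSRNOG00000029886. In hippocampus it had 741.3 CPM of ENSRNOG00000047321, 1246 CPM of ENSRNOG00000029886, 1074 CPM of Hbb, and 13.57 CPM of Alas2, against at most 57.9, 143, 144, and 0.889 CPM in the other LPAEx rats.

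LPSed rat 10 stood above the other LPSed hippocampi, with 291.5 CPM of ENSRNOG00000047321 and 5.692 CPM of Alas2, against at most 70.8 and 1.25 CPM. LPEx rat 6 stood above the other LPEx muscles, with 141.6 CPM of ENSRNOG00000047321, 368.1 CPM of Hbb, and 3.029 CPM of Alas2, against at most 63.5, 153, and 0.622 CPM.

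In colon, CONSed rat 3 was high among CONSed, with 21.76 CPM of ENSRNOG00000047321 and 52.57 CPM of ENSRNOG00000029886. CONEx rat 12 was low among CONEx, with 2.905 CPM of ENSRNOG00000047321, 9.684 CPM of ENSRNOG00000029886, and 11.21 CPM of Hbb, against at least 10.1, 21.9, and 28.4 CPM in the other CONEx colons. LPSed rat 8 had 0 reads of Alas2 in PFC, against at least 1.15 CPM in the other LPSed rats.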

How the results depend on the processing

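Of the 20 member tests in the 5 LPAEx comparisons of liver, 0 were called. It was 1 with DESeq2, and 0 to 11 when each library was left out in turn. These tests repeat the same 4 genes. Over all genes, DESeq2 called 1.98% against CONEx. Without LPAEx rat 4, 6, 9, or 12, the settings with calls, 1.91%, 2.15%, 2.24%, and 1.99% of all tests were called. In the other tissues and for exercise, LP, and LPA the number of member tests called was 0 under each alternative run. This includes the PFC fits without LPAEx rat 9 and CONSed rat 7, whose libraries an earlier analysis of these data had noted for hippocampal genes. With rat number as a replicate block, 0 members were called, and the 20 liver values of LPAEx were 0.93 to 2.19. The deviations of same-numbered rats had a mean r of 0.01 to 0.11 in the 5 tissues. It was 0.108 in colon, against -0.0090 for rats of other numbers, and 0.0985 in muscle, against -0.0098. Whether the number stands for more than a label was not tested. The colon LP values were reversed under voom with quality weights, at -0.016 for ENSRNOG00000047321, -0.066 for ENSRNOG00000029886, and -0.079 for Hbb, and the cause was not tested.

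The 8 correlations between tissues were 14 with group means removed, and 0 with TMM-scaled CPM, with the 2 farthest libraries left out, or without LPAEx rat 11. TMM scaling over all libraries reversed 6 of the 40 tissue differences. PFC minus muscle was then -0.14 for ENSRNOG00000047321 and -0.25 for Hbb, and hippocampus minus muscle was -0.56 for ENSRNOG00000047321, -0.38 for ENSRNOG00000029886, -0.74 for Hbb, and -0.27 for Alas2. Of the 60 ratio comparisons 34 passed, against 27 with a pseudocount of 0.05 and 32 with all 35 livers. Reads limit Alas2 most, with a median of 5 reads in colon, and several colon libraries lay at 0.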

Other observations

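The values of the members in the 2 liver libraries left out of the comparisons were as follows. That of LPAEx rat 7 had 11.3 CPM of ENSRNOG00000047321, 32.4 CPM of ENSRNOG00000029886, 14.4 CPM of Hbb, and 0 reads of Alas2 among 19121966. That of LPEx rat 4 had 52.7 CPM of ENSRNOG00000047321, 132.8 CPM of ENSRNOG00000029886, 243.3 CPM of Hbb, and 1.67 CPM of Alas2. The lowest levels in the 33 livers kept were 47.8, 113, 252, and 0.656 CPM for the same genes, so the library of LPAEx rat 7 was below them for all 4 genes, and that of LPEx rat 4 for Hbb alone. The reads of Hbb per read of ENSRNOG00000029886 were 0.446 in the library of LPAEx rat 7, below the lowest of the 33 livers kept (1.33), and 1.83 in that of LPEx rat 4, within the range of the livers kept and above the highest of the 36 muscle libraries (1.19).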
